A study of Homo sapiens with 6 samples.

Results

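The genes followed here, 9 in number, mark human embryonic stem cells: the RNA-binding protein genes LIN28 (the array's name for LIN28A), LIN28B and L1TD1, the chromatin genes DPPA2, DPPA4, UTF1 and USP44, and the telomere genes TERF1 and TERT. Their probes were taken by gene name from the array's probe list, which gave 13 probes for the 9 genes, of 47230 probes and 31334 gene names in all. TERF1 had 3 probes, TERT and USP44 had 2 each, and the other genes had 1. The cells were of H1, a widely used human embryonic stem cell line, at passage 32, grown without feeder cells on Matrigel in conditioned medium with basic FGF. They were dissociated with trypsin and transfected the next day with 2 µg of a pSUPER plasmid, which drives a short hairpin RNA (shRNA). In 3 samples the shRNA targeted HERVH, a family of human endogenous retroviruses that is transcribed in these cells, and in the other 3, the controls, it targeted luciferase. RNA was taken 5 days after transfection and read on 1-colour Illumina expression arrays. The comparison asked which genes change when HERVH is depleted. The labels give no share of transfected cells and no selection step, so each value is an average over transfected and any untransfected cells of 1 line.

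Embryonic stem cells keep an open, self-renewing state through transcription factors such as OCT4 (gene POU5F1), SOX2 and NANOG, and the genes described here belong to the layer around that core. LIN28A and LIN28B bind precursors of the let-7 microRNAs and block their maturation, and let-7 in turn silences growth and stem cell genes. DPPA2 and DPPA4 are partner proteins that bind chromatin at developmental genes, UTF1 is a chromatin-bound cofactor, L1TD1 is an RNA-binding protein derived from a LINE-1 element, and USP44 removes ubiquitin from histone H2B. TERF1 coats telomere repeats as part of the shelterin complex, and TERT is the catalytic subunit of telomerase, which keeps telomeres long in dividing stem cells.

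Signals are given as deposited, on a linear scale in arbitrary units. The median signal of an array lay between 71.2 and 73.8 in the 6 samples. Across probes, which are not independent replicates, log2 signals of 2 samples of 1 group correlated with r between 0.9943 and 0.9952, and those of samples from different groups with r between 0.9681 and 0.972. No gene name on the array held HERVH (0 names), so the depletion itself was not read. The labels number the replicates but do not say whether they came from separate cultures, so the p-values measure no more than the spread between these samples. The test used below also draws each probe's spread towards a value shared by all probes. Brightness depends on the probe, so levels are compared between samples of 1 probe. Ratios of 2 probes are used only for how they change between the groups.

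Most of these stem cell genes were lower after HERVH shRNA, and UTF1 was higher. Of the 13 probes, 9 were lower, 1 was higher and 3 did not pass the test (limma, p-values adjusted by Benjamini-Hochberg over all probes, threshold 0.05). The share that passed was 76.9% of the 13 probes against 25.4% of all probes on the array, where 12.4% were lower and 13.0% higher, a balance that turned to more lower than higher calls with median centring, quantile normalization or normexp. In the same 10 probes the 3 HERVH shRNA samples lay wholly on 1 side of the 3 controls, 9 below and 1 above. Over the whole array, 15.7% of probes had all HERVH shRNA samples below all controls and 20.8% had them above. Brighter probes passed more often. Fitted alone, 12073 of the 23615 probes above the median level passed, and so did 9 of the 10 stem cell gene probes among them. The median difference of the 13 probes was -0.47 on the log2 scale, against 0.05 for all probes. By gene, LIN28, L1TD1, DPPA2, DPPA4 and USP44 fell on each of their probes, TERF1 on 2 of 3 and TERT on 1 of 2. LIN28B did not pass the test.

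**Figure D1:**
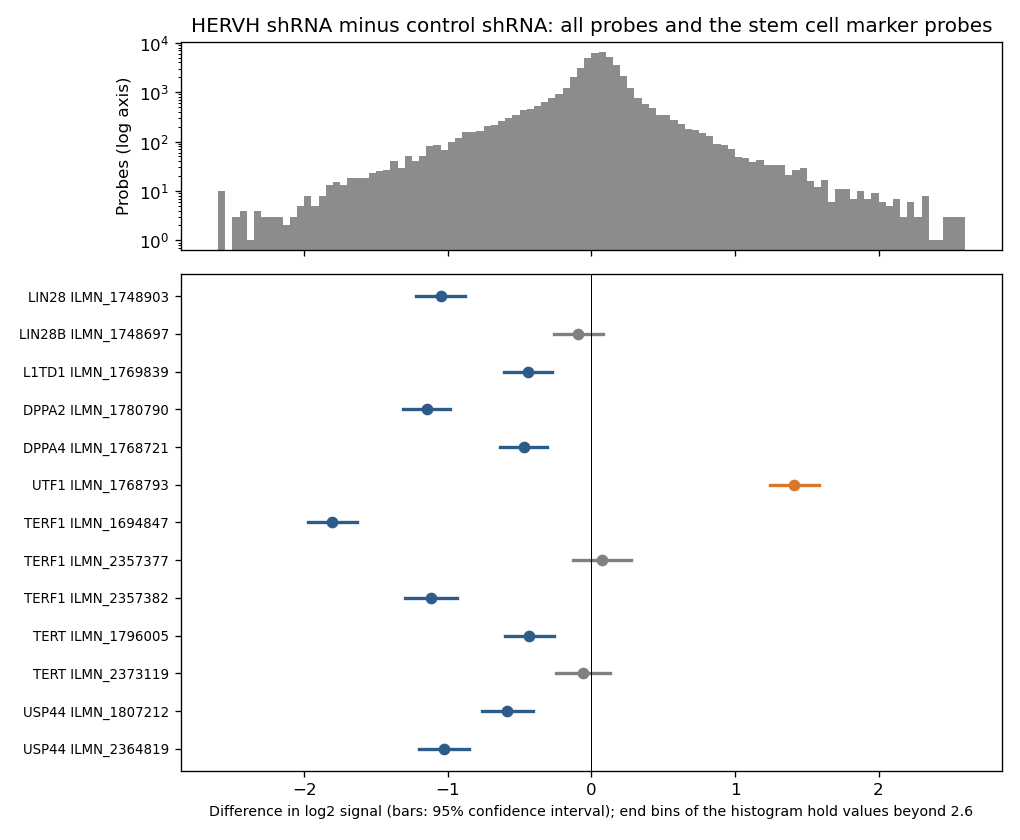
Difference in log2 signal, HERVH shRNA minus control shRNA (horizontal axis). The upper panel counts all 47230 probes per bin on a log axis, and the lower panel gives the 13 probes with their 95% confidence intervals from the limma fit; blue is lower and orange higher at adjusted p under 0.05, grey is not past it. TERF1 probe ILMN_1694847 lies lowest at -1.80 and UTF1 highest at 1.41.

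These were bulk cultures, where fewer cells of a type and less RNA per cell cannot be told apart. Stem cell identity was checked with 8 marker genes on 16 probes. Of these probes 9 were lower, 0 higher and 7 not past the threshold, and their summed signal was 27038 to 29272 in the controls and 16363 to 17800 after HERVH shRNA. TDGF1, one of these markers, was dim in both groups, with its 2 probes between 54 and 107. ZFP42 and SALL4 were bright and did not pass (limma, adjusted p = 0.458 and 0.206). They read 1939 to 2414 and 2613 to 2986 in the controls, and 1742 to 2144 and 2791 to 3344 after HERVH shRNA. Markers of other cells moved too. Among 17 probes for 10 fibroblast and mesenchymal genes 8 were higher and 2 lower, and the summed signal went from between 13006 and 13165 to between 27147 and 28926. Neuroectoderm markers had 6 of 13 probes higher, with sums of 3098 to 3264 and then 7019 to 7720. Endoderm markers had 4 of 12 higher and 1 lower, with sums of 815 to 851 and then 1758 to 1806. Trophoblast markers had 5 of 14 higher, with sums of 914 to 934 and then 1294 to 1338. Mesoderm markers had 1 of 14 probes lower and none higher, with sums of 1045 to 1120 and 1057 to 1096. Past the threshold were 56.2% of stem cell, 58.8% of fibroblast and mesenchymal and 46.2% of neuroectoderm marker probes. For endoderm, trophoblast and mesoderm the shares were 41.7%, 35.7% and 7.14%, against 25.4% of all probes. Of the 23615 probes above the median level, 12073 passed. Single genes carried much of the summed signals. AFP, a yolk sac and fetal liver protein gene of the endoderm list, read 168 to 172 in the controls and 973 to 1076 after HERVH shRNA, while SOX17, at 37 to 50, and GATA4, at 50 to 60, lay under the array medians in all samples. TUBB3 and NES gave most of the neuroectoderm sum, at 1292 to 1334 and 1152 to 1249 in the controls and 3334 to 3779 and 2911 to 3194 after HERVH shRNA. The 2 probes of VIM, the intermediate filament vimentin, read 1952 to 2169 and 3276 to 3474 and then 8220 to 9105 and 8247 to 8578. In the same list, the 2 lower probes were both of S100A4. They read 532 to 550 and 630 to 677 in the controls, and 228 to 259 and 265 to 277 after HERVH shRNA. THY1, at 4045 to 4734 in all samples, did not pass (limma, adjusted p = 0.944). In the trophoblast list HAND1 read 53 to 59 and then 211 to 232, and CDX2 53 to 70 in all samples. The part of these other cell markers in the changes below was not tested.

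**Figure D2:**
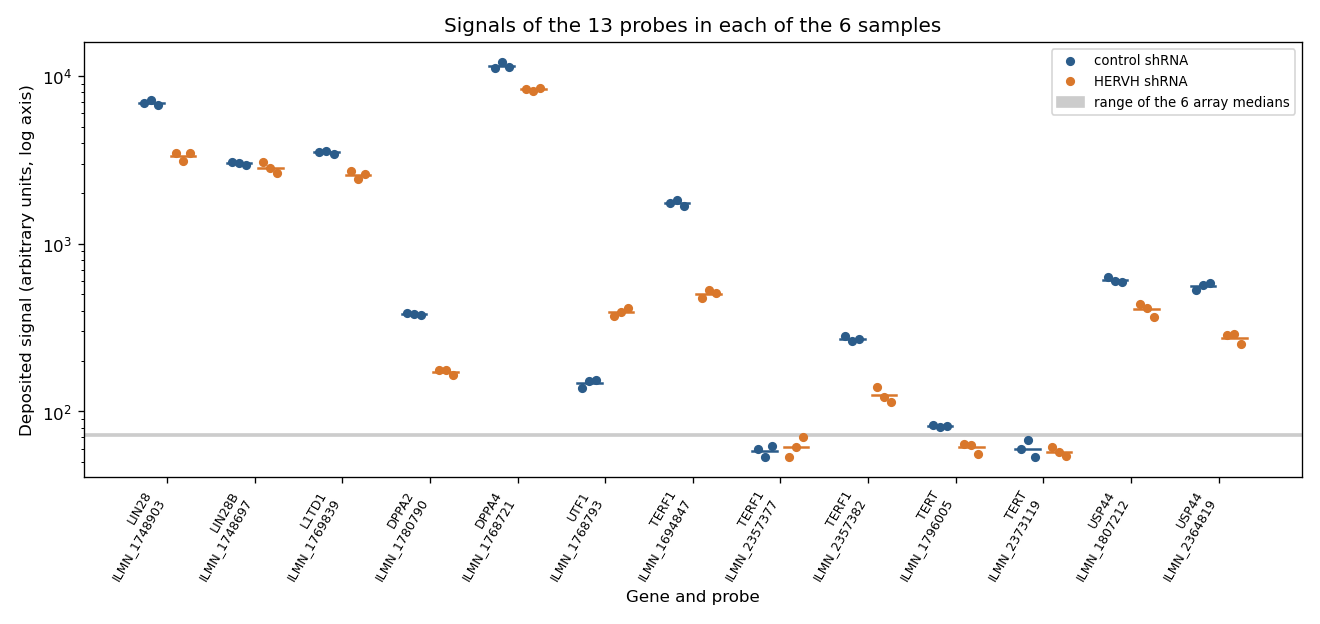
Deposited signal (log axis) of each of the 13 probes in the 3 control shRNA samples (blue) and the 3 HERVH shRNA samples (orange); each point is a sample, each short line a group mean, and the grey band the range of the 6 array medians. LIN28, DPPA2, TERF1 (2 probes) and USP44 are clearly lower after HERVH shRNA, UTF1 is higher, and 1 TERF1 and 1 TERT probe lie below the band in both groups.

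LIN28A and its paralog LIN28B act on the same small RNAs. The mature let-7 sequences of RefSeq (GRCh38.p14) are shown because both proteins control them; capitals mark the seed, bases 2 to 8, which all 9 let-7 and miR-98 sequences share.
let-7a-5p: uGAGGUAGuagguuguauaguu
let-7g-5p: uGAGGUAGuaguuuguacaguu
miR-98-5p: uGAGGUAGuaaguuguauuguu
The probe for LIN28 (ILMN_1748903; the gene lies on chromosome 1) read 6956, 7157 and 6744 in control replicates 1 to 3, and 3478, 3137 and 3466 after HERVH shRNA. All 3 HERVH shRNA samples lay far below the controls, at 48.3% of their level on average. The difference was -1.05 ± 0.08 on the log2 scale (SE, 3 samples a group, adjusted p = 9.38e-10), and 612 of all probes (1.30%) had a lower one. For LIN28B (ILMN_1748697, chromosome 6), the controls read 3090, 3027 and 2948 and the HERVH shRNA samples 3067, 2814 and 2650. The groups overlapped, and the difference was -0.09 ± 0.08 (adjusted p = 0.497), with a 95% confidence interval from -0.26 to 0.08. A fall of the size seen for LIN28 lies outside that interval. To compare the paralogs directly, the log2 ratio of the LIN28 to the LIN28B signal was taken within each sample. It was 1.17 to 1.24 in the controls and 0.16 to 0.39 after HERVH shRNA, a change of -0.96 ± 0.08 (SE). A two-sided exact permutation test gave p = 0.1, the smallest that 3 samples against 3 allow. This was 1 of 4 such pairs compared, chosen after their values were seen, and the adjusted p was 0.1 for each.

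Genes that work with LIN28 on microRNA precursors moved in both directions. Of 15 probes for 9 such genes, 4 were lower, 3 were higher and 8 did not pass. So 46.7% passed, against 25.4% of all probes and 12073 of the 23615 probes above the median level. ZCCHC11, a terminal uridylyltransferase that LIN28A recruits to let-7 precursors, rose on both of its probes. Its ILMN_1655137 signal went from 351 to 390 in the controls to 532 to 536, a log2 difference of 0.54 ± 0.08 (adjusted p = 1.25e-05). XPO5, the exporter of microRNA precursors, fell by 0.51 (adjusted p = 2.97e-05). The related uridylyltransferase gene ZCCHC6 fell by 0.46 on a probe that read 99 to 105 and then 72 to 79 (adjusted p = 1.10e-04).

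Among 18 genes known as let-7 targets, LIN28 and LIN28B themselves included, 10 of 29 probes were lower, 6 higher and 13 not past the threshold, with a median log2 difference of -0.05. This list had 55.2% of its probes past the threshold, against 25.4% of all probes and 12073 of the 23615 probes above the median level. CDC25A, a phosphatase that drives entry into the cell cycle, fell on its brighter probe from 1127 to 1198 in the controls to 451 to 483 (log2 difference -1.32, adjusted p = 1.79e-11). Its other probe, at 80 to 96 in all samples, did not pass (adjusted p = 0.723). E2F2, a cell cycle transcription factor, fell by 1.27 on the log2 scale (adjusted p = 1.47e-10). Cyclin D2, by contrast, rose: the CCND2 probes read 2983 to 3265 and 5960 to 6452 in the controls, and 4338 to 4727 and 8441 to 9963 after HERVH shRNA (adjusted p = 9.04e-06 and 9.32e-06). CCND2 was named after its values were seen, as were the other genes outside the 9 that are given without being among the 3 smallest p-values of their list. Mature let-7 was not measured.

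L1TD1 (ILMN_1769839, chromosome 1) read 3529, 3573 and 3428 in the controls and 2709, 2445 and 2595 after HERVH shRNA. All 3 HERVH shRNA samples were below the controls, at 73.5% of their level on average. The difference was -0.44 ± 0.08 on the log2 scale (adjusted p = 1.47e-04).

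DPPA2 and DPPA4 lie side by side on chromosome 3, with no other annotated gene between them in RefSeq (0 genes), and both are read from the minus strand. Their promoters are shown, 250 bases before to 50 after the annotated start, because both genes fell and because the UTF1 promoter, given for comparison, belongs to the gene that rose. Sequences are from RefSeq, 5′ to 3′ on the gene's strand, build GRCh38.p14. Capitals mark matches on either strand to any of 6 short motifs: ATGCAAAT, the octamer bound by OCT4, then CATTGT as the SOX core, GGGCGG as the GC box, the CCAAT box as named, TATAAA as the TATA box and CACGTG as the E-box.
DPPA2, chr3:109316468-109316767, minus strand: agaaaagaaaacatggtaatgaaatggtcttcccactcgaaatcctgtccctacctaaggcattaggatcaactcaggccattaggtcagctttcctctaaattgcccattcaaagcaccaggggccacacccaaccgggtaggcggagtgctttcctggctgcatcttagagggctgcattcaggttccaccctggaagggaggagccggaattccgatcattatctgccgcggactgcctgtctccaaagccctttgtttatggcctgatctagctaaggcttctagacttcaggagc
DPPA4, chr3:109337497-109337796, minus strand: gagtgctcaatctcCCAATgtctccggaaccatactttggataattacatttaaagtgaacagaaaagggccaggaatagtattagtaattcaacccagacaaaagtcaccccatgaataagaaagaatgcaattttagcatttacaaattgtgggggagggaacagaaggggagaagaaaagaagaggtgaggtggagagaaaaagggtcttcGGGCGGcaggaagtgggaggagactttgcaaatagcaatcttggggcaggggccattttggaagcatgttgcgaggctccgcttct
UTF1, chr10:133229967-133230266, plus strand: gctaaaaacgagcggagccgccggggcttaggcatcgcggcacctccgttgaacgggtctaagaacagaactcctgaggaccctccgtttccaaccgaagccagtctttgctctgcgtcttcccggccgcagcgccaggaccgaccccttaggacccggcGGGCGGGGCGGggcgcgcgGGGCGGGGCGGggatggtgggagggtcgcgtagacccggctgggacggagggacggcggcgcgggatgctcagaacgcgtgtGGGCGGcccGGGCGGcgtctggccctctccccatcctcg
The UTF1 window held 6 GC boxes, of which neighbouring ones share a base in 2 places. DPPA4 held 1 GC box and 1 CCAAT, and DPPA2 held a match to none of the 6. Of 35116 promoter windows of this length, 45.0% held a GC box, 34.6% CCAAT, 11.5% the TATA box, 10.8% the SOX core, 7.26% the E-box and 1.77% the octamer. GC content was 71.7% for UTF1, 51.3% for DPPA2 and 45.3% for DPPA4, against a median of 58.7% over all windows. The window of L1TD1, a gene that also fell, is not shown. It had a GC content of 58.0%, with 1 GC box and 1 CCAAT. LIN28B and TERT also had promoter entries, whose windows were not examined gene by gene. The windows given are thus only a part of those available. These matches describe letters only, and no binding was measured.

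DPPA2 (ILMN_1780790) read 388, 380.3 and 378 in the controls and 177, 177 and 164 after HERVH shRNA. Both groups were tight and did not overlap, and the HERVH shRNA samples were at 45.1% of the control level. The log2 difference was -1.15 ± 0.08 (adjusted p = 1.54e-10). Its neighbour DPPA4 (ILMN_1768721) read 11220, 12107 and 11358 in the controls and 8362, 8176 and 8483 after HERVH shRNA. The groups were again apart, but the fall was smaller, to 72.2% of the control level (log2 difference -0.47 ± 0.08, adjusted p = 6.42e-05). The log2 ratio of DPPA2 to DPPA4 moved from between -4.99 and -4.85 to between -5.69 and -5.53, a change of -0.68 ± 0.06 (two-sided exact permutation p = 0.1, the smallest possible).

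The wider list of DPPA family and early embryo genes held 13 genes, of which 12 had a probe and ESRG had none by name. Of its 15 probes 6 were lower, 3 higher and 6 not past the threshold, so 60% passed against 25.4% of all probes. Above the median level, 12073 of 23615 probes passed. Without the probes of DPPA2, DPPA4, L1TD1 and UTF1, 3 of 11 were lower, 2 higher and 6 not past the threshold. DPPA5, an RNA-binding protein gene of early embryos, fell from 123 to 134 in the controls to 46 to 52, a log2 difference of -1.36 (adjusted p = 1.77e-11); the later values lie below the array medians. Besides UTF1, the probes that rose were those of LEFTY1 and LEFTY2, secreted antagonists of NODAL. LEFTY1 read 3647 to 4343 and then 8860 to 10039 (adjusted p = 5.84e-10), and LEFTY2 2317 to 2699 and then 5106 to 6338 (adjusted p = 1.66e-09). The 3 DPPA3 probes did not pass, with signals of 59 to 95.

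UTF1 (ILMN_1768793, chromosome 10) went the other way. Its signal was 138, 152 and 154 in the controls and 372, 394 and 414 after HERVH shRNA. Each HERVH shRNA sample was more than double the brightest control, and the mean ratio was 2.66. The log2 difference was 1.41 ± 0.08 (adjusted p = 1.09e-11), and 229 of all probes (0.485%) had a higher one. UTF1 is known as a target of OCT4 and SOX2, whose own probes are given further on.

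TERF1 had the largest fall of the 9 genes. Probe ILMN_1694847 read 1759, 1826 and 1682 in the controls and 472, 527 and 510 after HERVH shRNA. The groups were far apart, at 28.6% of the control level, and the log2 difference was -1.80 ± 0.08 (adjusted p = 1.75e-13). Only 74 probes of the whole array (0.157%) had a lower difference. A second probe, ILMN_2357382, read 282, 265 and 269 and then 140, 123 and 115, a difference of -1.12 ± 0.09 (adjusted p = 1.10e-09). The third, ILMN_2357377, stayed between 53 and 71 in all 6 samples, below every array median, and did not pass (0.07 ± 0.10, adjusted p = 0.655). The log2 ratio of the first to the second probe changed by -0.69 ± 0.14 (two-sided exact permutation p = 0.1, the smallest possible), with a ratio of 2.64 to 2.79 in the controls and 1.75 to 2.15 after HERVH shRNA. Which transcripts each probe reads was not known here. The second probe lay nearer the array medians than the first, and the share of background in its signal was not assessed. Whether background accounts for the change in ratio was not tested.

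Pseudogene copies complicate this gene. RefSeq lists 7 TERF1 copies, and 5 of them were on the array under LOC numbers, with 8 probes. Of these 8 probes, 7 read 51 to 104 in all samples and did not pass the test. The other, ILMN_3282292, named for TERF1P3 (listed as LOC646316), read 1593, 1644 and 1592 in the controls and 461, 481 and 472 after HERVH shRNA (log2 difference -1.77 ± 0.08, adjusted p = 1.22e-13). Whether this probe and those of TERF1 bind the same transcript was not tested, since probe sequences were not used here. DPPA2 also had a copy on the array, DPPA2P3, whose 2 probes read 49 to 69 and did not pass.

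TERT (chromosome 5) was dim. Probe ILMN_1796005 read 83, 81 and 82 in the controls, a little above the array medians, and 64, 63 and 56 after HERVH shRNA, below them. The groups did not overlap, and the log2 difference was -0.43 ± 0.08 (adjusted p = 2.92e-04). The other probe, ILMN_2373119, read 60, 67 and 53 and then 61, 57 and 55, with overlapping groups and no call (-0.06 ± 0.09, adjusted p = 0.732). Detection p-values were not tied to samples here, so whether either TERT probe stood above background was not assessed.

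The shelterin and telomerase list held 18 genes and 33 probes, of which 15 were lower, 2 higher and 16 not past the threshold, with a median log2 difference of -0.13. It had 51.5% of its probes past the threshold, against 25.4% of all probes and 12073 of the 23615 probes above the median level. Without the 5 probes of TERF1 and TERT, 12 of 28 were lower and 2 higher. Within shelterin, the subunits did not share a direction. TERF2, which also binds telomere repeats and protects chromosome ends, rose from 281 to 299 in the controls to 318 to 398 (log2 difference 0.30, adjusted p = 0.0131), and its partner TERF2IP rose by 0.57 (adjusted p = 2.75e-05). TINF2 and ACD, which bridge the complex, did not pass (adjusted p = 0.635 and 0.228). POT1, the single-strand binding subunit, was lower on 1 of 3 probes.

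Of the genes in this list whose proteins bind the telomerase RNA or help assemble its complex, some fell on every probe and others did not pass. NHP2 was lower on all 4 of its probes, with log2 differences from -1.55 to -1.02; the brightest of them read 3099 to 3321 and then 1058 to 1129 (adjusted p = 1.45e-12). GAR1 was lower on all 4 probes too, with log2 differences from -1.15 to -0.49. Its dimmest probe, ILMN_1708954, fell most, from 148 to 201 in the controls to 74 to 79 (adjusted p = 3.40e-09). The brightest, at 1399 to 1472 and then 984 to 1091, fell by 0.49 (adjusted p = 4.59e-05). DKC1, the dyskerin subunit, fell by 0.76 (adjusted p = 1.09e-07). NOP10 did not pass on either probe (adjusted p = 0.520 and 0.625), nor did the assembly factor gene NAF1 (adjusted p = 0.961). NHP2, GAR1, DKC1 and NOP10 also serve the small nucleolar RNAs that modify ribosomal RNA.

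**Figure D3:**
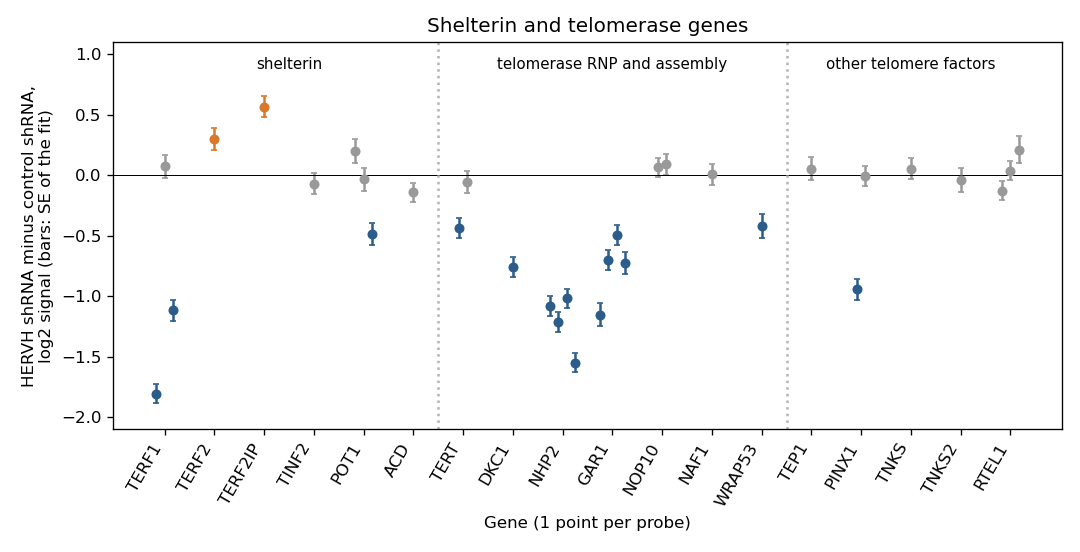
Difference in log2 signal, HERVH shRNA minus control shRNA, for each probe of 18 shelterin, telomerase and other telomere genes; bars are the SE of the limma fit, blue is lower and orange higher at adjusted p under 0.05, grey is not past it. TERF1 falls to -1.80 while TERF2 and TERF2IP lie above 0, and all probes of NHP2 and GAR1 lie below 0.

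USP44 (chromosome 12) fell on both probes. ILMN_1807212 read 634, 599 and 592 in the controls and 437, 416 and 367 after HERVH shRNA, with no overlap (log2 difference -0.58 ± 0.08, adjusted p = 1.06e-05). ILMN_2364819 read 530, 571 and 586 and then 284, 290 and 253 (-1.03 ± 0.08, adjusted p = 2.47e-09). The log2 ratio between the probes changed by -0.44 ± 0.08 (two-sided exact permutation p = 0.1, the smallest possible), and its ranges in the 2 groups did not overlap.

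USP44 is known both as a histone H2B deubiquitinase of stem cells and as a regulator of the spindle checkpoint, where it acts on CDC20. In the list of such partners, 9 of 23 probes were lower, 2 higher and 12 not past the threshold, the 2 USP44 probes among the lower. The share that passed was 47.8%, against 25.4% of all probes and 12073 of the 23615 probes above the median level. BUB3, a checkpoint protein, was lower on 1 of its 4 probes, from 399 to 428 in the controls to 207 to 236 (log2 difference -0.92, adjusted p = 1.01e-08). Its brightest probe, at 4914 to 6071 and then 4691 to 5097, did not pass (adjusted p = 0.143). MAD2L1, which holds CDC20 inactive, fell on its brighter probe by 0.93 (adjusted p = 1.22e-08), and CDC20 fell by 0.69 (adjusted p = 6.37e-07). The probes that rose were the only probe of RNF20 and 1 of the 2 of RNF40, the ligase pair that places ubiquitin on H2B, which read 729 to 771 and 335 to 357 in the controls and 919 to 983 and 395 to 500 after HERVH shRNA (adjusted p = 0.00225 and 0.00138). The other RNF40 probe did not pass (adjusted p = 0.954).

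Among core pluripotency genes, set beside the 9 genes, 9 of 15 probes for 7 genes were lower, 0 were higher and 6 did not pass. The share that passed was 60%, against 25.4% of all probes and 12073 of the 23615 probes above the median level. SOX2 fell from 2437 to 2508 in the controls to 510 to 623 on probe ILMN_1770635 (log2 difference -2.17, adjusted p = 2.51e-14) and by 0.47 on its other probe. DNMT3B, the de novo DNA methyltransferase of these cells, fell by 1.09 on probe ILMN_1794692 (adjusted p = 4.39e-10). Its brightest probe, ILMN_2328972, fell by 0.85, and dimmer ones by 0.38 and 0.33. Its probe ILMN_1734285, at 57 to 65 in all samples, did not pass (adjusted p = 0.742). POU5F1 fell by 1.07 on 1 of 2 probes (adjusted p = 1.15e-09). All POU5F1, NANOG, SOX2, DNMT3B and SALL4 probes of this list are also in the stem cell marker list above. The counts of both lists are therefore not independent.

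**Figure D4:**
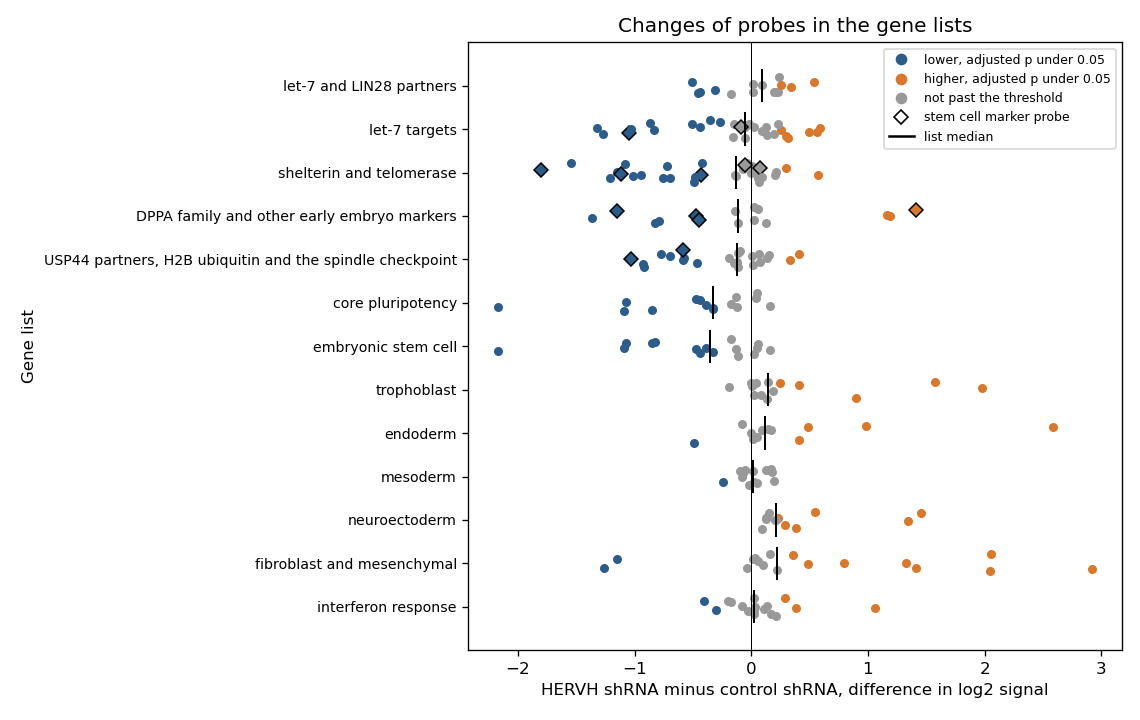
Difference in log2 signal, HERVH shRNA minus control shRNA, of each probe in 6 pathway lists and 7 marker lists; blue is lower and orange higher at adjusted p under 0.05, grey is not past it, diamonds are the 13 probes, and black lines are list medians. The median is -0.33 for core pluripotency and 0.22 for fibroblast and mesenchymal markers.

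Probes with the pattern most like LIN28 were sought over the 6 samples, as the root mean square difference of log2 signals after each probe's own mean was removed. Of 1105 candidate probes that were above the median level and varied at least as much, the nearest were those of LOC100128689, LOC648249 and LOC645693, at 0.022, 0.025 and 0.035. Their log2 differences were -1.08, -1.06 and -1.09. For DPPA4, with 5565 candidates, PWWP2A at 0.016 and the metallothionein gene MT1X at 0.019 were among the nearest, with log2 differences of -0.49 and -0.50. With 2 groups of 3 samples, a small distance mostly reflects the same difference between the groups.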

How the data were processed

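The 6 H1 samples, 3 with HERVH shRNA and 3 with control shRNA, were grouped by their titles. The authors deposited a value table with a probe intensity per sample, in columns named by sample; GenomeStudio is named per the submitters' processing notes, with no version, and how background, normalization and annotation were handled is not stated in these sources. These deposited intensities are linear, from 28.9 to 27159, and already aligned between arrays (log2 medians 6.15 to 6.21), so they were not normalized again. With 3 arrays a group, their number limits the precision.

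Gene names came from the authors' non-normalized table, matched by probe identifier (47230 of 47230 probes). Its 12 signal and detection columns carry no sample label and were not used, so detection was not assessed. The column of gene names, deposited as text, is another kind of value and holds no measurement.

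Values were floored at 10 (0 values lay below) and taken to log2, and all probes were fitted with limma 3.58.1 in R 4.3.3 (lmFit, eBayes). P-values were adjusted by Benjamini-Hochberg over all probes, with a threshold of 0.05. The fit was tested on simulated data, in which far fewer probes changed than were called here. That test therefore does not bear on the calls made here. A ± value beside a log2 difference is the SE. Figures used matplotlib 3.10.9. Every probe of the 9 genes is described, and of each pathway list the 3 genes with the smallest p-values. Genes named from the marker lists were not picked by that rule. The genes and lists were chosen with earlier results of these data known. Sequences and current names of LOC entries came from RefSeq tables (GRCh38.p14), in which 6 of the 9 genes had a promoter entry. Results for a gene of the core pluripotency list and for a gene with a pattern like DPPA4 are not reported here.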

Additional observations from a re-analysis of the deposited data

How the results depend on the processing

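Of 15 alternatives, 14 were planned and 1, normexp background correction with an offset of 50, was chosen after seeing the data. Over all 15, the count of the 13 probes called stayed at 10, except that 9 of the 10 probes left by the filter on dim probes were called. Of 192 values per probe, 189 kept their direction and their side of the threshold. The 3 others were probes that were never called: TERF1 ILMN_2357377 at -0.0045 with quantile normalization and between -0.027 (without HERVH shRNA replicate 3) and 0.18 when 1 sample was left out, and TERT ILMN_2373119 between -0.14 and 0.028 (without control replicate 2) when 1 sample was left out; the cause was not tested. The median of the 13 probes was -0.81 with the filter on dim probes, since that filter removed 3 of them, and lay between -0.49 and -0.44 when 1 sample was left out. UTF1 ranged from 1.32 to 1.45 and TERF1 ILMN_1694847 from -1.85 to -1.76 over all alternatives. The limma adjusted p-values were less stable than the calls. With a floor of 50, that of TERF1 ILMN_1694847 went from 1.75e-13 to 3.63e-05, and that of LIN28 from 9.38e-10 to 1.27e-04. The whole array had 11974 probes called, between 10401 and 12573 under the alternatives, where the filter on dim probes gave 12073 of 23615. Its balance depended on the scaling: 5854 were lower and 6120 higher as deposited, 6640 and 4814 with median centring, 6442 and 4983 with normexp, and 5925 and 5693 with quantile normalization. Deviations of same-numbered samples correlated with r = 0.092, -0.010 and 0.049, so the numbers were not taken as pairs; the replicate block gave 12083 probes called, the same 10 probes called among the 13 and a median of -0.47. The share of background in the dim signals was not assessed.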

Other observations

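Genes of the interferon response, which foreign RNA can induce, passed the test on 29.4% of their probes, a share near the 25.4% of all probes. Of 17 probes for 8 genes, 3 were higher, 2 lower and 12 not past the threshold (limma, adjusted over all probes). IFI6 rose on both probes, from 350 to 372 in the controls to 690 to 781 on the brighter one (log2 difference 1.06, adjusted p = 1.06e-09). ISG15 fell from 816 to 846 to between 616 and 641 (adjusted p = 3.31e-04). The IFIT1, IFIT2, IFIT3 and OAS1 probes did not pass.

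Probes of 1 gene did not always move together. DICER1, the nuclease that cuts microRNA precursors, had 1 probe lower (587 to 764 in the controls, 525 to 566 after HERVH shRNA, adjusted p = 0.0143) and 1 higher (156 to 196, then 210 to 230, adjusted p = 0.0476), and 2 probes that did not pass.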
